A study of Mus musculus with 2 samples.

Results

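Genes that mark Kupffer cells and other macrophages were examined in whole liver RNA of mice whose hepatocytes lack Lpcat3. The 35 genes were listed by name, with earlier results of these data known. They were matched by gene ID to every probe set annotated to exactly 1 of them, out of 18194 genes with such a probe set. Of the 35, 11 are called resident identity genes here because they were listed as markers of the resident Kupffer cell. The other 24 are called general myeloid genes because they were listed as genes of macrophages and other leukocytes. The classes were assigned by name and are not exclusive to these cells, since hepatocytes also make the resident gene Slc40a1. Both groups were male mice, 12 weeks old, fed chow and fasted for 6 hr, with both Lpcat3 alleles floxed (Lpcat3fl/fl). Flox/Flox mice had no Cre, and L-Lpcat3 KO mice also carried Albumin-Cre. Liver RNA of 5 mice was pooled per genotype and hybridized to 1 Affymetrix array, so each group is 1 pool without replicates. No test, p-value or standard error can be given, and every difference below is one between these 2 pools. Albumin-Cre is active in hepatocytes, so the Kupffer cells of L-Lpcat3 KO mice keep their own Lpcat3 gene.

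Kupffer cells are the macrophages that live inside the liver sinusoids, where they bind blood cells, bacteria and complement-coated particles and take them up. They depend on signalling through the receptor Csf1r and on the transcription factor PU.1, encoded by Spi1, and they carry surface proteins that few other macrophages have. Monocytes that enter the liver share the general machinery of phagocytes, such as lysosomal proteins, Fc receptor adaptors and the superoxide-producing oxidase. In whole tissue, a lower signal of such genes from fewer cells of the type and one from less RNA per cell cannot be told apart.

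Values are MAS5 signal intensities, which are linear summaries of a probe set's brightness. Both arrays had been brought to the same trimmed mean before deposit. Signals under 76.4, the median of all signals on both arrays, were raised to that floor, and a gene was counted as measured if its brightest probe set exceeded it in at least 1 pool. This left 12084 genes. Lpcat3 itself had a signal of 3310 in the Flox/Flox pool and 1305 in that of L-Lpcat3 KO (log2 ratio -1.34), although where its probe set lies relative to the floxed exon was not determined here. The ratio of 3′ to 5′ control probe sets, a gauge of RNA integrity, was close in the pools. It was 0.866 (Flox/Flox) and 0.851 (L-Lpcat3 KO) at Gapdh, and 2.34 and 2.32 at Actb.

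Most of the measured genes on this list had a slightly lower signal in the L-Lpcat3 KO pool. Among the 35 genes, 32 were measured, and 29 of these (90.6%) had a log2 ratio (L-Lpcat3 KO to Flox/Flox) below 0, where 49.3% of all measured genes did. The list was not independent of these data, since earlier results were known when it was chosen. Outside it, 6 of 10 other measured Kupffer cell genes and 11 of 18 other macrophage genes were below 0 (medians -0.04 and -0.09). The median log2 ratio of the members was -0.27, with the central part of the genes from -0.37 (25th percentile) to -0.08 (75th percentile), beside a median of 0.00 and a range from -0.14 to 0.16 over all measured genes. The differences were small. No member was 1.5-fold lower or higher, sizes that 3.19% and 4.04% of all measured genes passed. Cd14 was past 1.5-fold lower after quantile normalization, and Itgam was past 1.5-fold higher once the floor was lowered to the 25th percentile or dropped. The lowest ratio was that of Cd14 (-0.56) and the highest that of Spi1 (0.15). Slc40a1, Spi1 and Ms4a7 were the 3 measured members with a higher signal in L-Lpcat3 KO.

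**Figure D1:**
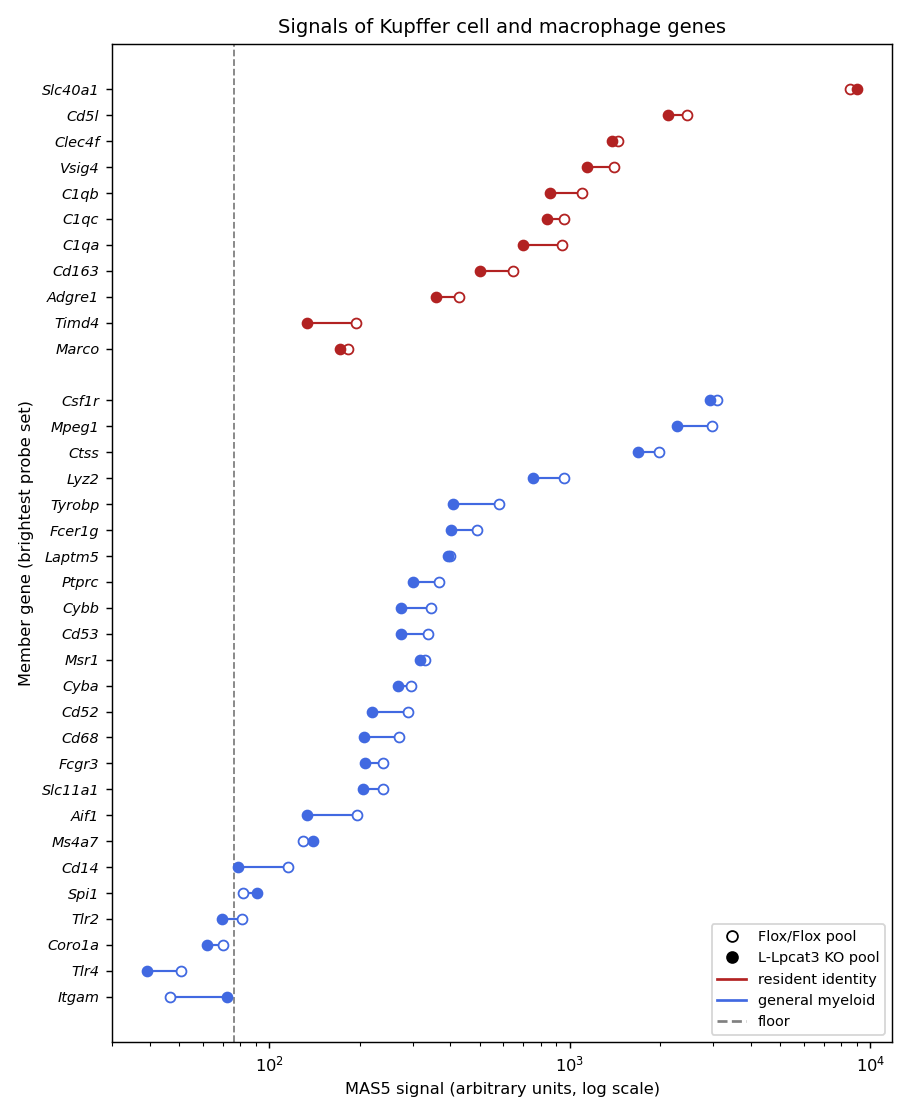
Signal intensity (log axis) of each member gene's brightest probe set in the Flox/Flox pool and the L-Lpcat3 KO pool, 1 point per pool, with the floor of 76.4 as a line. Signals spanned from 39.3 to 9020, and 29 of the 32 measured genes had the lower signal in L-Lpcat3 KO.

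The promoters of these genes were read because PU.1 is itself encoded by a member. The RefSeq table of mouse promoters (GRCm38.p6), each 250 bases before to 50 after a gene's start, held none for Adgre1, C1qa, Cd14, Cd52, Csf1r, Msr1, Slc40a1, Spi1, Tlr4 and Tyrobp, and 29 promoters of the other 25 members, 4 of which have 2 promoters each (those of Fcgr3 overlap each other, as do those of Ptprc). The letters GAGGAA, the core of the PU.1 motif, were sought on either strand, where the other strand reads TTCCTC. They stood in 17 of the 29 promoters (58.6%), compared with 28.3% of all 32851 promoters, and in those of 16 of the 25 genes (64%), compared with 31.3% of all genes. A match of 6 letters describes the sequence and shows no binding. The promoters of Timd4 (log2 ratio -0.54), Mpeg1 (-0.39) and Cd163 (-0.36) held none, whereas a promoter of Ms4a7 (0.10) held a match. Stretches of 100 bases are shown for the 4 members with the lowest ratios among those in the table that hold the letters, written 5′ to 3′ along the gene, with the match in capitals. In Aif1 it begins 7 bases before the start, on the other strand. In Cd68 it begins 225 bases before the start, with a second match beyond the stretch shown, and in C1qb 30 bases before it, on the gene's own strand. In Cybb it begins 10 bases after the start, on the other strand.
Aif1 (chr17:35176023-35176122, minus strand): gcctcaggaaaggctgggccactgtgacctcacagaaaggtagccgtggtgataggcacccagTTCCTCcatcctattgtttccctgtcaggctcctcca
Cd68 (chr11:69666321-69666420, minus strand): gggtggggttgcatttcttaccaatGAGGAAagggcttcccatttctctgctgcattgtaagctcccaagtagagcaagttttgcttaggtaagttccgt
C1qb (chr4:136886171-136886270, minus strand): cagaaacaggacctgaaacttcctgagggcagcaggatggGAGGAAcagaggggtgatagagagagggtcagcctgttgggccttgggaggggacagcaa
Cybb (chrX:9469295-9469394, minus strand): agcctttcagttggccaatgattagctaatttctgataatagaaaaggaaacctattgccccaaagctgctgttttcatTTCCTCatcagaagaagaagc

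Among the resident identity genes, 10 of 11 were lower in L-Lpcat3 KO, with a median log2 ratio of -0.26. Timd4, a receptor for phosphatidylserine on dying cells, differed most of these 11, with a signal of 194 in the Flox/Flox pool and 133 in that of L-Lpcat3 KO (log2 ratio -0.54). Adgre1, which encodes the surface antigen F4/80, had signals of 429 and 357 in the same order (-0.26). Clec4f, a lectin that in mouse liver is restricted to Kupffer cells, had signals of 1441 and 1385 (-0.06), and was among the members that differed least.

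The 3 members that are resident scavenging and complement receptors were all lower. Cd163, the scavenger receptor for haemoglobin bound to haptoglobin, had a signal of 646 in the Flox/Flox pool and 502 in that of L-Lpcat3 KO (log2 ratio -0.36). Vsig4, the complement receptor that captures bacteria from blood, had signals of 1403 and 1143 (-0.30). Marco, a scavenger receptor for bacteria and particles, had signals of 183 and 172 (-0.08), the smallest difference of these 3 genes.

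The resident secreted proteins were the subunits of C1q, which starts the classical complement pathway, and Cd5l, a protein that macrophages release into plasma. C1qa had signals of 940 in the Flox/Flox pool and 699.5 in that of L-Lpcat3 KO (log2 ratio -0.43), and C1qb had 1097 and 859 (-0.35). C1qc had signals of 953 and 842 (-0.18). All 3 C1q chains were thus lower at their brightest probe sets, but for C1qb the 3 probe sets ranged from -0.43 to 0.16 and 1 of them was higher in L-Lpcat3 KO. Cd5l, the brightest resident gene after Slc40a1, had signals of 2459 and 2124 (-0.21).

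Slc40a1 was the exception. It encodes ferroportin, the iron exporter through which Kupffer cells return iron from red blood cells, and hepatocytes and other cells make it too. Its signal was 8538 in the Flox/Flox pool and 9020 in that of L-Lpcat3 KO (log2 ratio 0.08), and its 2 probe sets were both higher, at 0.07 and 0.08. It was the brightest of the class. The summed signal of the resident identity genes in L-Lpcat3 KO was 94.3% of that in Flox/Flox (18280 and 17237), but 84.3% without Slc40a1. Without it, a choice made after the values were seen, all 10 genes were below 0, with a median of -0.28. For Adgre1, Clec4f, Cd5l, Marco, Vsig4 and Timd4, 6 genes singled out after the values were seen, all 6 were below 0, with a median of -0.24 and a summed signal of 87.0%.

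**Figure D2:**
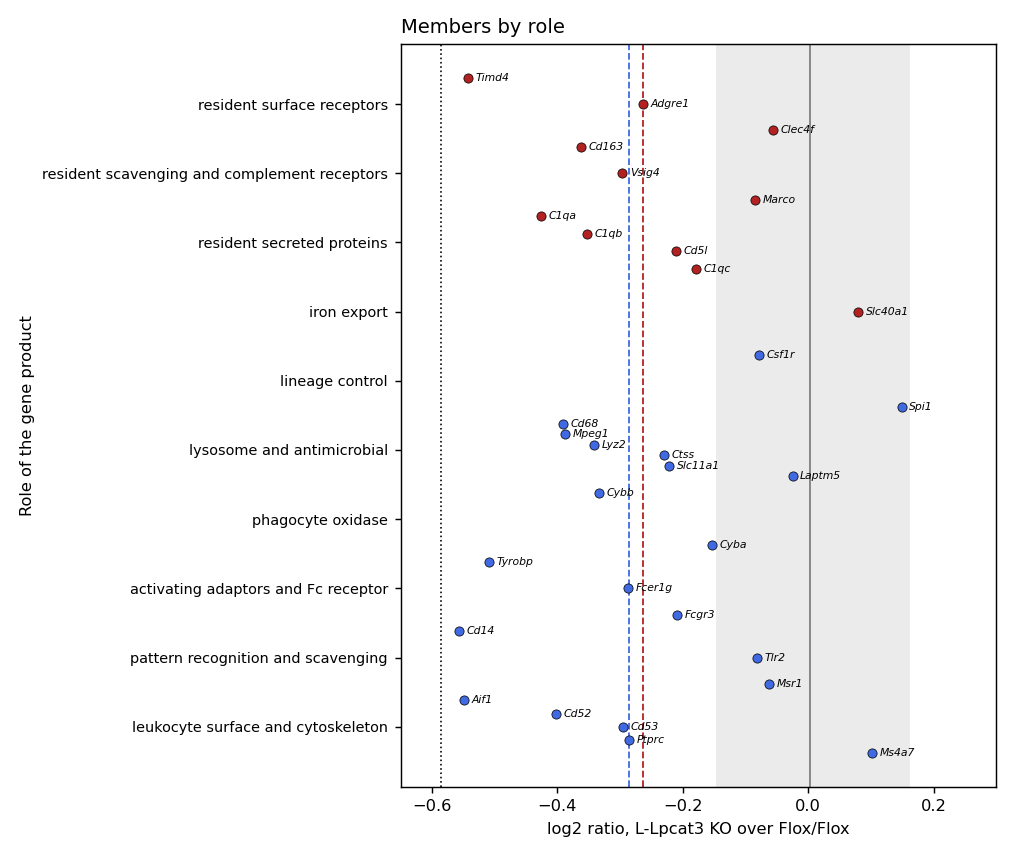
Log2 ratio (L-Lpcat3 KO to Flox/Flox) of each measured member, grouped by role (red, resident identity; blue, general myeloid), with dashed lines at the class medians of -0.26 and -0.29, a dotted line at 1.5-fold lower and grey shading from -0.14 to 0.16, the 25th to 75th percentile of all measured genes. Points lie left of 0 for 10 of 11 resident identity and 19 of 21 general myeloid genes.

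Among the 24 general myeloid genes, 21 were measured, 19 of them were lower in L-Lpcat3 KO, and the median log2 ratio was -0.29. Their summed signal in L-Lpcat3 KO was 84.3% of that in Flox/Flox (13763 and 11605). The median of this class minus that of the resident identity genes was -0.02. Genes are not replicates, and no test was made of that difference.

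The genes that control the lineage did not share a direction. Csf1r, the receptor for the growth factors Csf1 and Il34, had a signal of 3083 in the Flox/Flox pool and 2921 in that of L-Lpcat3 KO (log2 ratio -0.08), and its 3 probe sets were all lower, from -0.19 to -0.08. Spi1 had signals of 81.9 and 90.8 (0.15), both close to the floor. Of the 2 measured Csf1r ligands, the brighter, Csf1, had signals of 219 and 204 (-0.10). The other, Il34, lay below the floor in Flox/Flox (68.9) and had a signal of 91.3 in L-Lpcat3 KO, at least 1.2-fold higher.

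All 6 genes of the lysosomal and antimicrobial group were below 0 at their brightest probe sets, with a median log2 ratio of -0.29. Mpeg1, a pore-forming protein that acts on engulfed bacteria, had signals of 2969 in the Flox/Flox pool and 2269 in that of L-Lpcat3 KO (-0.39). Cd68, a glycoprotein of the lysosomal membrane, had signals of 270.3 and 206 (-0.39). These 2 genes had the lowest ratios of the group, whereas Laptm5 had the highest. Lyz2, which encodes the lysozyme of macrophages, had signals of 955 and 754 (-0.34). Ctss, the cysteine protease cathepsin S that trims the invariant chain, had signals of 1972 and 1681 (-0.23), and Slc11a1, which pumps metal ions out of the phagosome, had 239 and 205 (-0.22). The ratios of these 3 genes were between those of Mpeg1 and Laptm5. Laptm5, a transmembrane protein of leukocyte lysosomes, had signals of 399 and 392 (-0.02). Its 4 measured probe sets ranged from -0.33 to 0.53, with 2 below and 2 above 0. It is counted as below 0 by its brightest probe set, as C1qb and Cybb are, whose probe sets also disagreed. Hydrolases and membrane proteins of lysosomes in all cells, a list of 14 measured genes, had 7 below and 7 above 0 and a median of -0.01; Ctsl, the brightest of them, was at -0.15.

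The oxidase subunits and their partners were lower at their brightest probe sets. Cybb, the catalytic subunit of the phagocyte oxidase, had a signal of 345 in the Flox/Flox pool and 274 in that of L-Lpcat3 KO (log2 ratio -0.33), with 2 of its 3 probe sets lower and a range from -0.40 to 0.09. Cyba, its membrane partner, had signals of 297 and 267 (-0.15). Of the cytosolic partners, 3 were measured and all were below 0, with a median of -0.41 that was -0.024 with the second brightest probe sets. Rac2, the small GTPase that activates the oxidase in leukocytes, was the lowest, with signals of 177 and 94.1 (-0.91).

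Tyrobp, the adaptor DAP12 that passes on signals from activating receptors such as Trem2, had signals of 579 in the Flox/Flox pool and 407 in that of L-Lpcat3 KO (log2 ratio -0.51). Fcer1g, the common chain of Fc receptors, had signals of 490.2 and 402 (-0.29), and Fcgr3, a low-affinity receptor for IgG, had 239 and 207 (-0.21). All 3 genes of this group were lower, the adaptor Tyrobp most.

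Cd14, Tlr2 and Tlr4 were the dimmest of the pattern recognition and scavenging receptors. Cd14, the co-receptor for lipopolysaccharide, had signals of 115 in the Flox/Flox pool and 78.5 in that of L-Lpcat3 KO (log2 ratio -0.56), the latter just above the floor. Tlr2, a receptor for bacterial lipoproteins, had a signal of 80.8 in Flox/Flox and lay below the floor in L-Lpcat3 KO, at least 1.06-fold lower. Tlr4, the receptor for lipopolysaccharide, lay below the floor in both pools (50.8 and 39.3), so no ratio is given. Msr1, a scavenger receptor for modified lipoproteins, had signals of 330 and 316 (-0.06). Of 11 measured partners of the Toll-like receptors, 5 were below 0 and the median was 0.00. Lbp, the lipopolysaccharide-binding protein of plasma and the brightest of them, had signals of 5457 and 4448 (-0.30).

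The remaining members are proteins of the leukocyte surface and cytoskeleton. Aif1, the actin-binding protein Iba1, had signals of 195 in the Flox/Flox pool and 133 in that of L-Lpcat3 KO (log2 ratio -0.55), the second lowest ratio of all members. Cd52, a small surface glycoprotein, had signals of 289 and 219 (-0.40). Cd53, a tetraspanin of leukocytes, had signals of 336 and 274 (-0.30), and Ptprc, the phosphatase CD45 found on all nucleated blood cells, had 366 and 300.5 (-0.29). These 4 genes were lower, and Ms4a7, a membrane protein of macrophages, was higher, with signals of 130 and 139 (0.10). Itgam, the integrin CD11b (46.7 and 72.1), and Coro1a, a regulator of actin (70.1 and 62.1), lay below the floor in both pools and were given no ratio.

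Bright and dim members were both mostly lower. The signal was compared with 387, the 75th percentile of all signals, a split chosen after the values were seen. Of the 16 members above it in at least 1 pool, 15 were below 0 (93.8%), with a median of -0.28, where 51.1% of all genes above it were. Of the other 16 members, 14 were below 0 (87.5%), with a median of -0.25, where 46.6% of the other genes were.

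**Figure D3:**
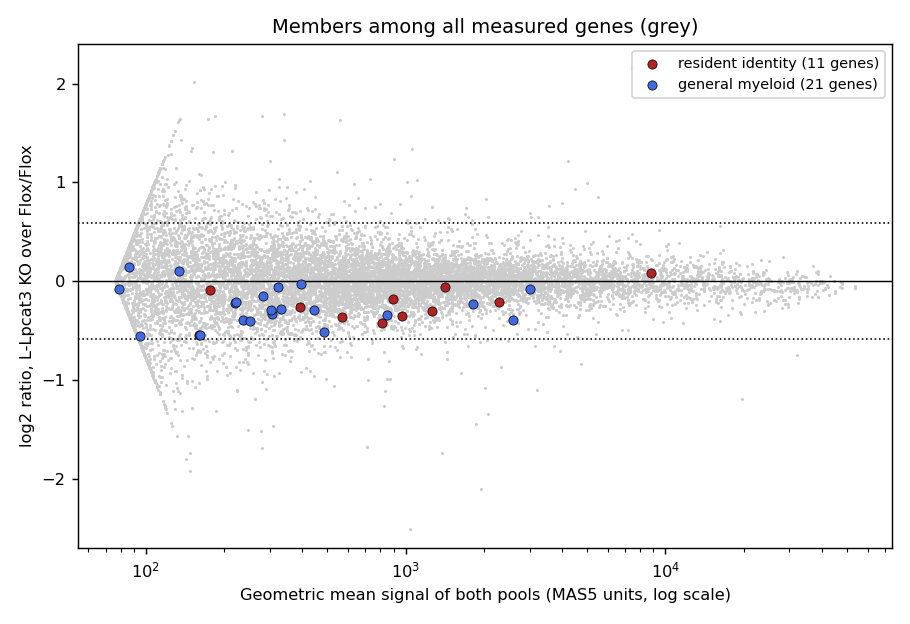
Log2 ratio (L-Lpcat3 KO to Flox/Flox) against signal (geometric mean over the pools, log axis) for all measured genes (grey) and the measured members (red, resident identity; blue, general myeloid), with dotted lines at 1.5-fold. Members lie between -0.56 and 0.15 over the range of signals, with 29 of 32 below 0.

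Of the 58 probe sets of the members, 42 were measured, and 34 of these (81.0%) were below 0, compared with 49.3% of the 20650 measured probe sets of all genes. Of 5 members with several measured probe sets, 2 had probe sets that all shared a sign (40%), Csf1r with all below 0 and Slc40a1 with all above it. Over all genes with several measured probe sets the share was 41.5%. Thus probe sets of the same gene often disagreed in sign, in these 5 members and elsewhere. The share over all genes was not limited to differences of the members' size, and that of the members rests on 5 genes.

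**Figure D4:**
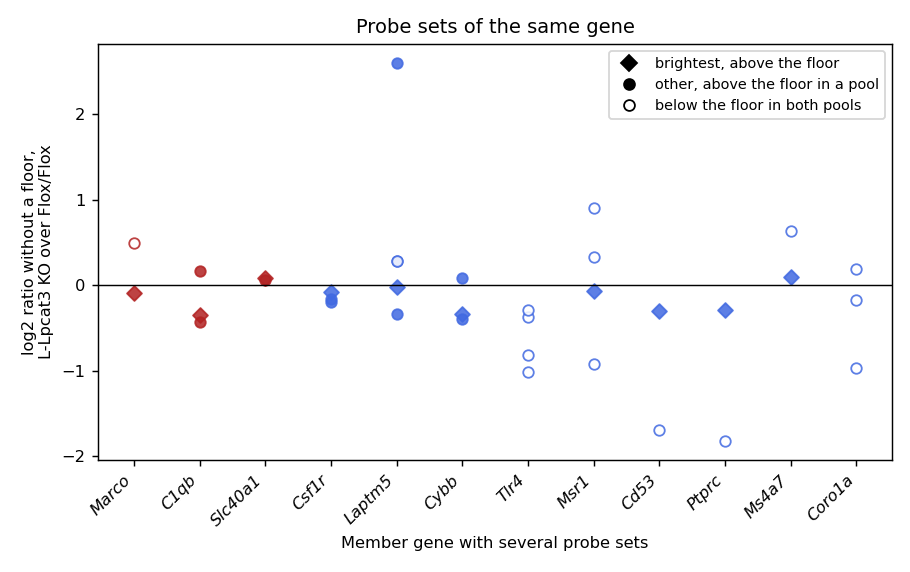
Log2 ratio without a floor (L-Lpcat3 KO to Flox/Flox) of every probe set of the members that have several, with diamonds for a gene's brightest probe set, filled circles for others above the floor in both pools or in 1, and open circles for those below it. The measured probe sets of C1qb, Cybb and Laptm5 lie on both sides of 0, while those of Csf1r lie below and those of Slc40a1 above it.

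Other genes listed for Kupffer cells and macrophages had medians nearer 0. Of 10 other measured genes named for Kupffer cells, 6 were below 0 and 4 above, with a median log2 ratio of -0.04 (0.22 with the second brightest probe sets). Sdc3, a heparan sulfate proteoglycan, was the only one past 1.5-fold, with signals of 677 in the Flox/Flox pool and 426 in that of L-Lpcat3 KO (-0.67), although another of its probe sets had the opposite sign. C6, a complement component and the brightest, was at -0.07. Of the 4 above 0, Cd207 (0.56) and Hpgd (0.46) were the highest. Of 18 other macrophage genes, 11 were below 0 and the median was -0.09 (0.028 with the second brightest probe sets). Sirpa (-0.60) and Lgals3 (-0.59) were more than 1.5-fold lower, Cd84 (0.70) was more than 1.5-fold higher, and the brightest gene, Lcp1, was at 0.42. In a direction opposite to the members, 8 of 11 markers of sinusoidal endothelial cells, which line the vessels where Kupffer cells sit, were above 0, with a median of 0.22 and a summed signal in L-Lpcat3 KO of 115% of that in Flox/Flox (9710 and 11165). Clec4g, the brightest of these, was at 0.23. With the second brightest probe sets the endothelial median was 0.11. Of 11 hepatocyte markers, 9 were below 0, with a median of -0.05 and a summed signal of 97.9% (Apoa1, the brightest, was at -0.05), and 10 stellate cell markers had a median of 0.04, with Col3a1 at -0.61 and Dcn, the brightest, at 0.05. The part of these other cell types in the members' values was not tested.

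Other blood cells gave few measured genes. Of 9 listed genes of monocytes and recruited macrophages, 3 were measured, with a median log2 ratio of -0.17 (as low as -0.77 under other settings), and Plac8, the brightest, had signals of 994 in the Flox/Flox pool and 729 in that of L-Lpcat3 KO (-0.45). Of 12 neutrophil markers, 7 were measured, 5 of them below 0, with a median of -0.12. Mpo, the myeloperoxidase of neutrophil granules, was at -0.63, and Csf3r was at least 1.57-fold higher, since it lay below the floor in Flox/Flox. Of 18 lymphocyte markers, 4 were measured (median 0.15, with Ighm, the brightest, at 0.55), and of 8 dendritic cell markers 3 were (median 0.13, with Zbtb46, the brightest, at -0.13). Of 7 bile duct markers 3 were measured (median 0.40), with Sox9 at -1.06 and Epcam at least 1.68-fold higher, and of 7 red blood cell markers only Alas2 was, at 0.23. The lymphocyte, dendritic and bile duct medians turned below 0 under other settings, to as low as -0.53, -0.32 and -1.06. The 8 measured reference genes had a median of -0.04, with B2m, the brightest, at -0.18. As a gauge of stray signal, 7 of 26 genes that mark the retina, testis and other organs also exceeded the floor in at least 1 pool. Their median was -0.02, with a 25th percentile of -0.27 and a 75th percentile of 0.23. The lowest and highest of these ratios were -0.58 and 0.56, beside -0.56 and 0.15 for the members. Of these 7 genes, 3 were above the floor in both pools. Prm1, the brightest of the 7, had signals of 780 in the Flox/Flox pool and 734 in that of L-Lpcat3 KO (-0.09), above those of many members.

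**Figure D5:**
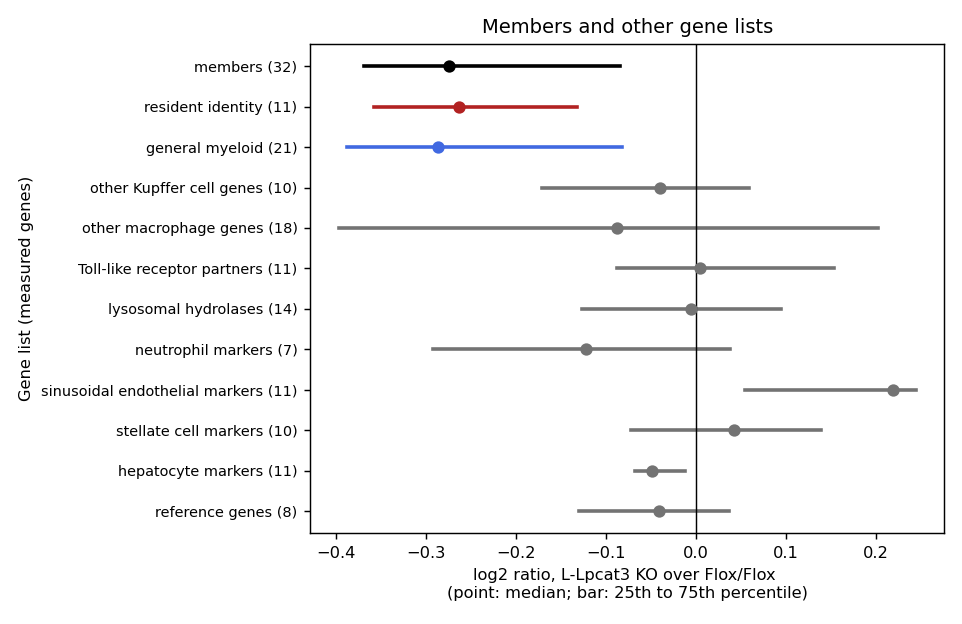
Median log2 ratio, L-Lpcat3 KO to Flox/Flox (point), with the 25th to 75th percentile over genes (bar) for the members, their 2 classes and other lists with at least 5 measured genes. The members (median -0.27) lie left of 0, the sinusoidal endothelial markers (0.22) right of it.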

How the data were processed

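RNA of 5 livers was pooled per genotype and run on 1 Affymetrix mouse expression array each. The values the authors deposited are a signal intensity for each probe set, which per the submitters' processing notes is a MAS5 signal. No source used here gives the MAS5 version, and the study's methods name GeneSpring GX for the analysis. Of 45101 probe sets, 64 were controls, 34945 had 1 gene, 932 listed several genes (0 of them a member) and 9160 were unnamed here. The last 2 kinds were left out. Symbols of the platform annotation were updated by gene ID to RefSeq, and 249 of 251 listed names matched.

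Log2 was taken without further scaling, with a floor at the median signal (76.4). The value of a gene was that of its brightest probe set. Genes were counted at 1.5-fold, with no test, since each group is 1 array. The number of arrays limits the precision. All 35 members, Lpcat3 and, from other lists, up to 3 genes past 1.5-fold and the brightest gene were named. Cd207, Hpgd and Il34 were added after their values were seen. The members and lists were chosen with earlier results of these data known. Alternatives changed the scaling (median centring, quantile, loess), the floor (25th or 75th percentile, none, pseudocount), the gene summary (mean, second brightest probe set, without _s_at and _x_at), the list mean and the genes kept. The scripts were tested on simulated data with planted changes past 1.5-fold, larger than that of any measured member. The software was matplotlib 3.10.9, statsmodels 0.14.6, scipy 1.17.1, pandas 2.3.3 and numpy 2.4.6 under Python 3.11.15.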

Additional observations from a re-analysis of the deposited data

How the results depend on the processing

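The median log2 ratio of the members lay between -0.33 and -0.21 over 12 alternatives, that of the resident identity genes between -0.27 and -0.18 and that of the general myeloid genes between -0.33 and -0.22. Every measured member kept its sign in the alternatives that gave it a value except Laptm5, which was above 0 in 2 of 11. Only 5 members had several measured probe sets. For the others, only a change of scaling could have turned the sign, so this agreement says little about how firm the signs are. Of all genes, 48.3% to 51.0% were below 0, and 0.81% to 12.9% were at least 1.5-fold lower, the most with no floor (8.68% with a floor at the 25th percentile). The number of members 1.5-fold lower was 1 with quantile normalization (Cd14). The number 1.5-fold higher was 1 with a floor at the 25th percentile and 1 with no floor, Itgam, which had no value otherwise. With a floor at the 75th percentile 15 of 16 members with a value were below 0, and with the second brightest probe set 4 of 5, since fewer members had a value.

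Lists of few or dim genes moved more. With a floor at the 25th percentile the medians were -0.62 for monocyte genes, -0.33 for lymphocyte, -0.46 for neutrophil, 0.013 for dendritic, 0.81 for bile duct and 0.12 for red blood cell markers. With no floor they were -0.77 for monocyte genes, -0.53 for lymphocyte, 0.45 for dendritic, 0.81 for bile duct and 0.016 for red blood cell markers. With a floor at the 75th percentile monocyte genes were at -0.45. With a pseudocount they were -0.41 for monocyte genes, 0.30 for lymphocyte and -0.25 for neutrophil markers and -0.26 for the oxidase partners. With the second brightest probe set they were 0.22 for other Kupffer cell genes, 0.028 for other macrophage genes, -0.29 for Csf1r ligands, -0.024 for oxidase partners, -0.32 for dendritic, 0.11 for sinusoidal endothelial, 0.15 for stellate and -0.034 for bile duct markers. The list mean was -0.52 for oxidase partners and 0.030 for bile duct markers. Over genes above the floor on both arrays the medians were -0.45 for monocyte genes, -0.10 for Csf1r ligands, -0.63 for neutrophil and -1.06 for bile duct markers. The signs of the lymphocyte, dendritic, bile duct, other Kupffer cell, other macrophage and Csf1r ligand medians thus turned under some of these alternatives, from 0.15, 0.13, 0.40, -0.04, -0.09 and 0.08, and the cause was not tested. The medians of Toll-like receptor partners, lysosomal hydrolases, stellate cell markers and all genes, which lay close to 0, also changed sign under some. Signals close to the floor limit what can be read for Spi1, Cd14 and Tlr2, and no ratio could be read for Tlr4, Itgam and Coro1a.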
